A study of Arabidopsis with 12 samples.

Results

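Cysteine-rich receptor-like kinases (CRKs) are a large plant receptor family, and 40 of its Arabidopsis thaliana genes were looked for by locus identifier among the 28693 loci of the expression table. A locus of its own was found for 37 of them, and for CRK3, CRK14 and CRK24, which stood on several locus rows, the row with the highest mean level was used. The other 3 were measured only inside loci that merge neighbouring genes, CRK16 with CRK17 and CRK27 with AT4G21220, and those loci are given apart. Of the 37, 17 lie in a tandem cluster on chromosome 4 (TAIR10, 12117541 to 12191977, 74.4 kb), and 20 lie elsewhere on chromosomes 1, 3, 4 and 5.

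A CRK has an extracellular region with a pair of cysteine-rich DUF26 domains, a single membrane span and a cytoplasmic serine/threonine kinase. Many CRK genes are induced by salicylic acid, pathogens, ozone and other sources of reactive oxygen, and several of the proteins act in immune signalling, the oxidative burst, cell death or responses to abscisic acid. PAD4 is a lipase-like protein that works with EDS1 upstream of salicylic acid accumulation in leaf immunity.

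RNA sequencing covered 12 libraries in 4 groups of 3. By their labels they were the pad4 (phytoalexin deficient 4) mutant on medium without Fe, pad4 on complete medium, wild-type Col-0 on medium without Fe and Col-0 on complete medium. The pad4 allele is not given in the sources used here. Seedlings were grown on agar at 24 °C with 16 h light and 8 h dark, and the labelled Fe treatments lasted 7 d. The labels disagree on the tissue, which is shoot in 1 field, leaves together with roots in the extraction notes and whole seedlings in the design. The labels do not say whether libraries came from separate cultures, so p-values measure only the spread between these samples.

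The labels were checked on genes of known behaviour. PAD4 transcript was lower but still measured in the mutant, at 10.3 to 13.6 FPKM in the 6 pad4 libraries, against 18.1 to 21.97 FPKM in the 6 wild-type libraries. BHLH100, a transcription factor gene induced by Fe shortage, stood at 0.122 to 0.666 FPKM in the 6 libraries labelled -Fe, against 976 to 1137 FPKM in the 6 labelled +Fe. FER1, a ferritin gene raised by Fe, stood at 271 to 333 FPKM in libraries labelled -Fe, against 10.3 to 11.8 FPKM in those labelled +Fe. Both go against the Fe labels, so groups are called libraries labelled -Fe or +Fe throughout, and each direction of an Fe label effect is a direction between labels. Among 10 root markers the median level was 0.137 FPKM, and 3 of them had a mean of at least 1 FPKM, led by PYK10, a root beta-glucosidase gene, at 337 FPKM. The 4 leaf markers with a locus of their own had a median of 1105 FPKM.

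Other features of the libraries moved with the groups. FPKM of 4 small heat shock protein genes summed to 10.2 to 13.0 FPKM in pad4 labelled -Fe, 39.8 to 59.0 FPKM in pad4 labelled +Fe, 2156 to 2653 FPKM in wild type labelled -Fe and 30.7 to 35.5 FPKM in wild type labelled +Fe, so the wild-type libraries labelled -Fe stood far above the other 9. Summed root markers, nearly all PYK10, were 435 to 492 FPKM in pad4 labelled -Fe, 287 to 297 FPKM in pad4 labelled +Fe, 296 to 321 FPKM in wild type labelled -Fe and 294 to 301 FPKM in wild type labelled +Fe. The root hair genes RHD6, EXPA7, EXPA18 and SHV2 (COBL9) stayed under 1 FPKM in all 12 libraries, and the root hair gene PRP3 had 2.06, 2.31 and 2.45 FPKM in pad4 labelled -Fe and 0, 0 and 0.0559 FPKM in pad4 labelled +Fe. PRP3 had 0.555, 0.785 and 1.08 FPKM in wild type labelled -Fe and 0 FPKM in all 3 libraries of wild type labelled +Fe. The summed root markers and PRP3 were highest in pad4 labelled -Fe. The means of RHD6, EXPA7, EXPA18, SHV2, CASP1 and MYB66 (WER) were too, each with overlap with another group. TIP2;3 and CASP5 were not highest there. TIP2;3 had 0 FPKM in all 3 of those libraries, and means of 0.221 and 0.203 FPKM in wild type labelled -Fe and +Fe. CASP1 was lower in wild type labelled -Fe than in wild type labelled +Fe (means 0.754 and 1.35 FPKM). Summed leaf markers, mostly RBCS1A, were 13854 to 19655 FPKM in pad4 labelled -Fe and 7297 to 8963 FPKM in pad4 labelled +Fe. In wild type they were 11024 to 14948 FPKM labelled -Fe and 7113 to 8502 FPKM labelled +Fe. RBCS1A, CA1 and GPRI1 (GLK1) had higher means in pad4 labelled -Fe than in pad4 labelled +Fe. LHCA1 did not, at 1502 and 1524 FPKM. The part of these differences in the CRK results was not tested, and in whole tissue fewer cells of a type and less RNA per cell cannot be told apart. In addition, 1 library of each group (pad4 -Fe 3, pad4 +Fe 2, wild type -Fe 2 and wild type +Fe 2) stood apart (written by genotype, label and replicate number, here and below), since their deviations from the group means correlated at 0.411 to 0.511 across loci. The library totals of FPKM were 894824 to 1004002, 19096 to 19311 loci reached 1 FPKM, and depth is known only relative to the deepest library (0.566 to 1.0), so no counting intervals are given.

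Of the 37 genes, 33 reached the level asked of a tested locus, 1 FPKM in at least 3 libraries. FPKM counts fragments per length of transcript and per mapped fragments of the library, so levels can be compared between genes. In wild type labelled +Fe, CRK10, a gene induced by salicylic acid and pathogens, had the highest mean of the family at 202 ± 23.9 FPKM (SD, n = 3), followed by its neighbour CRK11 at 161 ± 8.04, CRK18 at 92.8 ± 7.58 and ARCK1 (CRK45) at 78.6 ± 1.71 FPKM. CRK19 and CRK40 followed at 60.9 ± 1.07 and 58.9 ± 0.358 FPKM, and CRK2 and CRK41, at 52.0 ± 3.002 and 51.8 ± 3.15 FPKM, were not separated beyond their spread. CRK10 was also the highest member in the other 3 groups. In wild type labelled -Fe, CRK6 ranked 3 among the 37 members, against rank 13 in wild type labelled +Fe, and in pad4 it ranked 20 in libraries labelled -Fe and 19 in those labelled +Fe.

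CRK25, CRK26 and CRK32 stayed under 1 FPKM in all 12 libraries, CRK33 was listed at 0 in all 12, and these 4 were not tested. CRK8 passed the filter only through wild type labelled -Fe, so a difference between that group and the others was built into its selection. It is counted among the members called for the genotype effect labelled -Fe, for the Fe label in wild type and for the interaction. Without it, 5 higher and 21 lower, 12 higher and 13 lower, and 6 higher and 12 lower of 32 were called. In the same order, 27.9%, 51.9% and 14.7% of all tested loci were called. Neighbouring CRK genes are similar in sequence, and how the authors counted reads that fit several loci, or whether strand was used, is not given in the sources used here; values of neighbours may therefore share reads. The merged CRK16 and CRK17 locus (chromosome 4, 12160502 to 12167026) lies inside the tandem cluster.

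The summed level of the 37 members was lowest in pad4 labelled -Fe. It was 515, 533 and 593 FPKM there, 882, 927 and 903 FPKM in pad4 labelled +Fe, 885, 999 and 876 FPKM in wild type labelled -Fe and 1100.3, 1207 and 1098 FPKM in wild type labelled +Fe. The pad4 libraries labelled -Fe did not overlap any other group, and all 3 wild-type libraries labelled +Fe lay above the other 9. Within the tandem cluster the sums were 313 to 379 FPKM in pad4 labelled -Fe, 552 to 581 FPKM in pad4 labelled +Fe, 529.6 to 600.0 FPKM in wild type labelled -Fe and 671 to 755 FPKM in wild type labelled +Fe. These sums mostly follow the abundant members. CRK10 and CRK11 had means of 104 and 37.6 FPKM in pad4 labelled -Fe and 181 and 137 FPKM in pad4 labelled +Fe. In wild type their means were 120 and 73.4 FPKM labelled -Fe and 202 and 161 FPKM labelled +Fe. The sums therefore do not give the direction of single members.

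In libraries labelled -Fe, most CRK genes were lower in pad4 than in wild type. By limma on log2(FPKM + 1), with Benjamini-Hochberg adjusted p under 0.05 over all 20173 tested loci, 27 of the 33 tested members were called, 5 higher and 22 lower, beside 27.9% of all tested loci (13.5% higher and 14.4% lower). On this scale the change of genes with low levels is understated. The members' median log2 difference, pad4 over wild type, was -0.74, beside 0.01 over all tested loci. In libraries labelled +Fe, 16 members were called, all lower in pad4, beside 9.35% of all tested loci (3.69% higher and 5.66% lower), with a median of -0.32, beside 0.01. The count of all loci called in this comparison depended on the libraries: it was 3151 without the 4 that stand apart (1887 with all), and 1210 without pad4 +Fe 2, 1203 without pad4 +Fe 3, 1026 without wild type +Fe 1 and 1048 without wild type +Fe 3. The members called were then 18, 2 of them higher (CRK36 and CRK21), without those 4 libraries, and 11 to 17 with 1 library left out.

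Most tested members, like most of all tested loci, differed between the Fe labels in each genotype. In pad4, 22 members were called between the labels, 4 higher and 18 lower in libraries labelled -Fe than in those labelled +Fe, beside 57.4% of all tested loci (26.3% higher and 31.0% lower), with a median of -0.39, beside -0.05. In wild type, 26 members were called, 13 higher and 13 lower, beside 51.9% of all tested loci (25.2% higher and 26.7% lower), with a median of -0.10, beside -0.02. These shares lie closer to the background than those of the genotype effects. The difference between the Fe label effects, pad4 minus wild type, was tested as the interaction: 19 members were called, 6 higher and 13 lower, beside 14.7% of all tested loci (7.07% higher and 7.58% lower), with a median of -0.30, beside -0.01. Each group enters several of these comparisons, so they are not independent of each other. The 4 heat shock genes above were called lower in the interaction and in pad4 over wild type labelled -Fe, and higher with the Fe label in wild type.

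**Figure D1:**
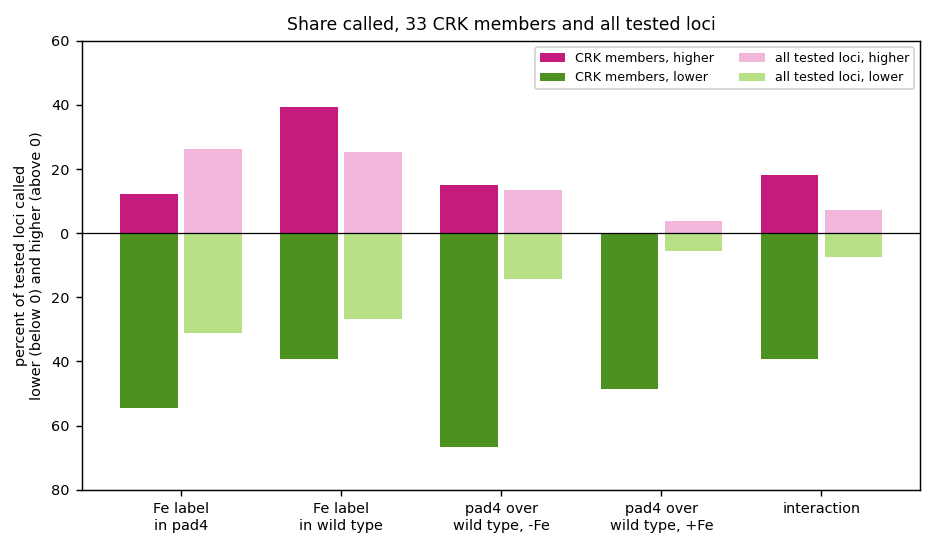
Percent of tested loci called higher (above 0) and lower (below 0) by limma in each of the 5 comparisons, for the 33 tested CRK members (dark bars) and all 20173 tested loci (pale bars). In the genotype effects, 22 members were lower and 5 higher in libraries labelled -Fe, and 16 were lower and 0 higher in those labelled +Fe. CRK8, which passed the filter only through wild type labelled -Fe, is counted in the 22. It is also counted for the Fe label in wild type and for the interaction.

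**Figure D2:**
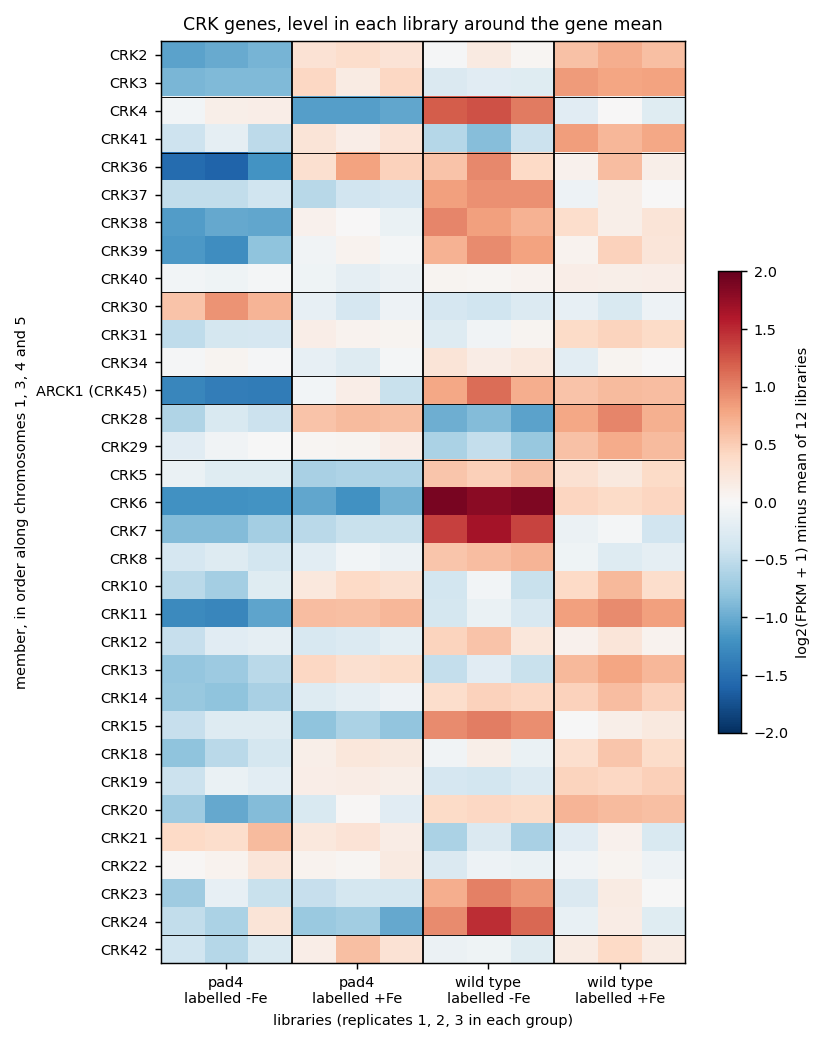
Level of each tested member in each of the 12 libraries, as log2(FPKM + 1) minus the mean of that gene over all libraries. Columns are grouped by genotype and Fe label, rows follow the chromosomes, and thin lines part the position blocks; CRK6 and CRK7 stand out as high in wild type labelled -Fe, and CRK36 as low in pad4 labelled -Fe.

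All 17 members with a locus in the tandem cluster were tested. In libraries labelled -Fe, 2 were called higher and 13 lower in pad4 (median -0.93), which is 88.2% beside 27.9% of all tested loci; in libraries labelled +Fe, 0 were called higher and 8 lower (47.1%, beside 9.35%). The Fe label effect in pad4 had 2 called higher and 8 lower (58.8%), near the 57.4% of all tested loci, and that in wild type 8 higher and 6 lower (82.4%, beside 51.9%). The 88.2% and the 82.4% both include CRK8, whose differences from wild type labelled -Fe were built into its selection. Outside the cluster, 3 were called higher and 9 lower of 16 tested in pad4 over wild type labelled -Fe, and 0 higher and 8 lower in those labelled +Fe.

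CRK6 (AT4G23140, chromosome 4, 12121383 to 12124205) and CRK7 (AT4G23150, chromosome 4, 12125731 to 12128332), adjacent genes known for responses to extracellular reactive oxygen, had the largest genotype differences of the cluster in libraries labelled -Fe. CRK6 had 8.62, 8.70 and 8.80 FPKM in pad4 labelled -Fe and 9.90, 8.62 and 10.6 FPKM in pad4 labelled +Fe. CRK6 had 81.9, 77.2 and 80.7 FPKM in wild type labelled -Fe and 29.1, 27.99 and 29.1 FPKM in wild type labelled +Fe. Wild type labelled -Fe was the highest group, wild type labelled +Fe the next, and all 6 pad4 libraries lay below both, with the pad4 groups overlapping each other. The log2 difference, pad4 over wild type, was -3.06 (adjusted p = 2.15e-10, SE 0.07) in libraries labelled -Fe and -1.48 (adjusted p = 1.04e-06, SE 0.07) in those labelled +Fe. The Fe label effect was -0.14 (adjusted p = 0.123, SE 0.07) in pad4 and 1.44 (adjusted p = 2.35e-08, SE 0.07) in wild type, and the interaction was -1.58 (adjusted p = 1.8e-06, SE 0.10). Without pad4 +Fe 2, or without the 4 libraries that stand apart, the Fe label effect in pad4 was called lower (-0.21 and -0.22, adjusted p = 0.0183 and 0.0151).

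For CRK7 the values were 4.12, 4.12 and 4.79 FPKM in pad4 labelled -Fe and 5.41, 5.87 and 5.83 FPKM in pad4 labelled +Fe. CRK7 had 23.0, 28.4 and 22.8 FPKM in wild type labelled -Fe and 7.62, 8.02 and 6.10 FPKM in wild type labelled +Fe. The wild-type libraries labelled -Fe stood clear of all others, and in pad4 the libraries labelled -Fe lay below those labelled +Fe. The genotype difference was -2.26 (adjusted p = 7.07e-08, SE 0.11) in libraries labelled -Fe and -0.29 (adjusted p = 0.138, SE 0.11) in those labelled +Fe. The Fe label moved CRK7 in opposite directions, at -0.33 (adjusted p = 0.0252, SE 0.11) in pad4 and 1.64 (adjusted p = 3.34e-07, SE 0.11) in wild type, with an interaction of -1.97 (adjusted p = 1.04e-05, SE 0.16). The fall in pad4 was not called without pad4 -Fe 1, pad4 -Fe 2, pad4 +Fe 2 or pad4 +Fe 3 (log2 difference -0.32 to -0.30, adjusted p = 0.0663 to 0.074). Both genes were highest in the group in which the heat shock genes were highest.

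CRK8 (AT4G23160, chromosome 4, 12129485 to 12134187), next to CRK7, was the least abundant of the 3. It had 0.545, 0.624 and 0.509 FPKM in pad4 labelled -Fe and 0.685, 0.860 and 0.793 FPKM in pad4 labelled +Fe. CRK8 had 1.85, 1.97 and 2.12 FPKM in wild type labelled -Fe and 0.840, 0.621 and 0.719 FPKM in wild type labelled +Fe. Only wild type labelled -Fe exceeded 1 FPKM, which is the group that let it pass the filter. Its differences from that group follow from this choice and are no result about it. CRK5 (AT4G23130, chromosome 4, 12117541 to 12120134), first in the cluster and known for abscisic acid responses and for cell death on overexpression, had 9.30, 8.59 and 8.60 FPKM in pad4 labelled -Fe and 6.25, 6.35 and 6.38 FPKM in pad4 labelled +Fe. CRK5 had 15.7, 14.7 and 15.9 FPKM in wild type labelled -Fe and 13.0, 11.98 and 13.7 FPKM in wild type labelled +Fe. No pair of its groups overlapped. It was lower in pad4 under both labels, with log2 differences of -0.74 (adjusted p = 1.32e-05, SE 0.07) for -Fe and -0.92 (adjusted p = 2.84e-05, SE 0.07) for +Fe, and higher in libraries labelled -Fe in both genotypes. The rise in wild type lost its call without wild type +Fe 2 (log2 difference 0.20, adjusted p = 0.0525).

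**Figure D3:**
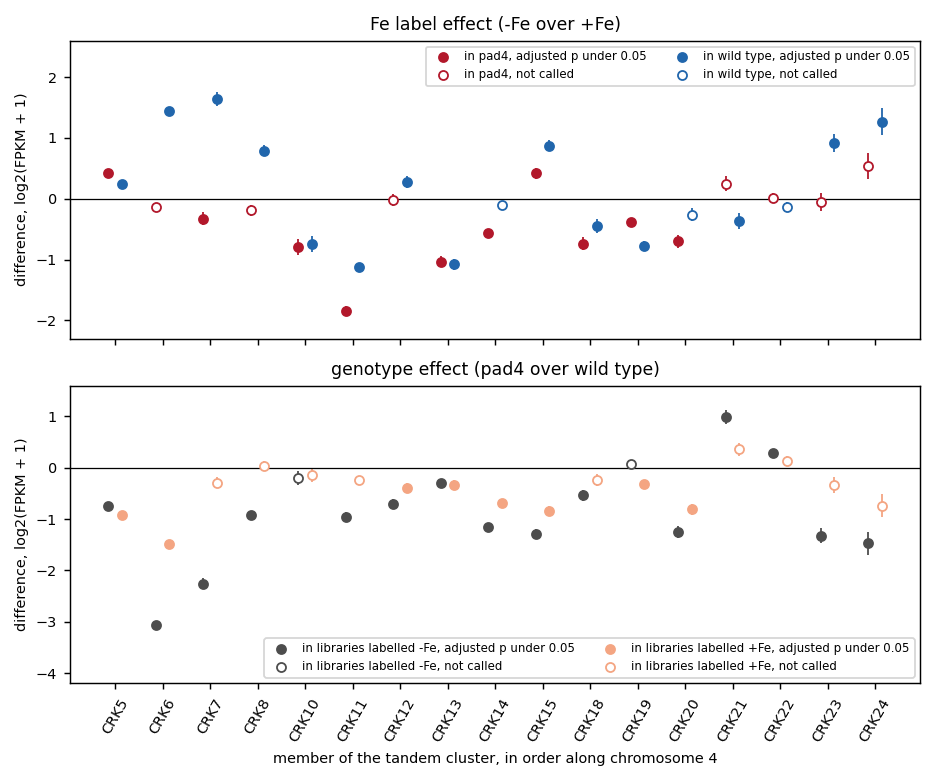
Differences on the log2(FPKM + 1) scale along the tandem cluster, with bars of 1 SE; the top panel shows Fe label effects (-Fe over +Fe) in pad4 and wild type, and the bottom panel genotype effects (pad4 over wild type) under each label. Filled points were called by limma. CRK6 lies at -3.06 in libraries labelled -Fe, and CRK21 and CRK22 are the cluster members above 0 there that were called. The CRK8 points that involve wild type labelled -Fe follow from its selection.

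CRK11 (AT4G23190, chromosome 4, 12141032 to 12143833), also known as RLK3 and induced by salicylic acid and pathogens, fell with the Fe label in both genotypes, further in pad4. It had 35.8, 35.0 and 41.9 FPKM in pad4 labelled -Fe and 136, 134 and 140.0 FPKM in pad4 labelled +Fe. CRK11 had 68.9, 80.7 and 70.7 FPKM in wild type labelled -Fe and 157, 171 and 156 FPKM in wild type labelled +Fe. No group overlapped another, and pad4 labelled -Fe was the lowest. The Fe label effect was -1.84 (adjusted p = 1.16e-08, SE 0.08) in pad4 and -1.13 (adjusted p = 6.65e-07, SE 0.08) in wild type, with an interaction of -0.71 (adjusted p = 0.00201, SE 0.12). pad4 was lower than wild type in libraries labelled -Fe, with a log2 difference of -0.95 (adjusted p = 7.82e-06, SE 0.08), while the difference in those labelled +Fe was -0.24 (adjusted p = 0.109, SE 0.08) and was called (-0.18, adjusted p = 0.0465) without the 4 libraries that stand apart. CRK10 (RLK4, AT4G23180, chromosome 4, 12138137 to 12140921), its neighbour, had 99.5, 90.8 and 123 FPKM in pad4 labelled -Fe and 169.5, 192 and 183 FPKM in pad4 labelled +Fe. CRK10 had 113, 141 and 107 FPKM in wild type labelled -Fe and 191, 229.6 and 185 FPKM in wild type labelled +Fe; it fell with the Fe label in both genotypes (-0.80 in pad4 and -0.75 in wild type), and its groups of opposite genotype overlapped under each label.

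CRK13 (AT4G23210, chromosome 4, 12148714 to 12151479), whose overexpression raises salicylic acid and resistance to Pseudomonas, fell with the Fe label in both genotypes. It had 7.94, 8.26 and 9.51 FPKM in pad4 labelled -Fe and 19.4, 18.0 and 18.6 FPKM in pad4 labelled +Fe. CRK13 had 9.96, 12.1 and 10.3 FPKM in wild type labelled -Fe and 23.0, 25.3 and 23.1 FPKM in wild type labelled +Fe. The libraries labelled -Fe all lay below those labelled +Fe, and pad4 lay below wild type under each label without overlap. That fall was -1.04 (adjusted p = 1.99e-06, SE 0.09) in pad4 and -1.08 (adjusted p = 1.53e-06, SE 0.09) in wild type, and their difference was not called (0.04, adjusted p = 0.879, SE 0.12). Its lower level in pad4 labelled -Fe (-0.30) was not called without pad4 -Fe 1, pad4 -Fe 2 or wild type -Fe 2 (log2 difference -0.27 to -0.22, adjusted p = 0.0781 to 0.0975), and that in pad4 labelled +Fe (-0.33) was not called without pad4 +Fe 1, pad4 +Fe 2, pad4 +Fe 3, wild type -Fe 3, wild type +Fe 1, wild type +Fe 2 or wild type +Fe 3 (log2 difference -0.36 to -0.29, adjusted p = 0.0505 to 0.122). CRK18, further along the cluster, fell in both genotypes too (-0.74 in pad4 and -0.45 in wild type) and was lower in pad4 labelled -Fe (-0.54, adjusted p = 0.00377, SE 0.11).

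CRK14, CRK15 and CRK20 were lower in pad4 under both labels. CRK14 (AT4G23220, chromosome 4, 12152335 to 12157091) had 16.9, 16.3 and 18.3 FPKM in pad4 labelled -Fe and 24.2, 25.7 and 27.3 FPKM in pad4 labelled +Fe. CRK14 had 37.6, 40.6 and 39.5 FPKM in wild type labelled -Fe and 40.7, 45.6 and 40.5 FPKM in wild type labelled +Fe, with the pad4 libraries all below the wild-type ones. It fell with the Fe label in pad4 (-0.56, adjusted p = 6.29e-05, SE 0.07) and had a difference of -0.10 (adjusted p = 0.259, SE 0.07) in wild type, with an interaction of -0.46 (adjusted p = 0.0129, SE 0.10). CRK15 (AT4G23230, chromosome 4, 12157569 to 12160270) had 6.11, 7.15 and 7.16 FPKM in pad4 labelled -Fe and 4.58, 5.30 and 4.62 FPKM in pad4 labelled +Fe. CRK15 had 17.8, 18.8 and 17.6 FPKM in wild type labelled -Fe and 8.75, 9.52 and 10.1 FPKM in wild type labelled +Fe, so that every pad4 library lay below every wild-type library. It rose with the Fe label in both genotypes, by 0.42 in pad4 and 0.87 in wild type, and the interaction was -0.45 (adjusted p = 0.029, SE 0.12). That interaction was not called without pad4 -Fe 1, pad4 +Fe 2, wild type -Fe 1, wild type -Fe 2 or wild type +Fe 1 (log2 difference -0.46 to -0.38, adjusted p = 0.0534 to 0.0819), nor without the 4 libraries that stand apart (-0.40, adjusted p = 0.0831).

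CRK20 (AT4G23280, chromosome 4, 12174740 to 12177471), which gives cell death when overexpressed, had 1.80, 1.27 and 1.53 FPKM in pad4 labelled -Fe and 2.71, 3.69 and 2.95 FPKM in pad4 labelled +Fe. CRK20 had 4.97, 5.09 and 4.97 FPKM in wild type labelled -Fe and 6.38, 6.16 and 5.99 FPKM in wild type labelled +Fe. Again no pad4 library reached the wild-type range under either label. The genotype difference was -1.25 (adjusted p = 5.63e-06, SE 0.11) in libraries labelled -Fe and -0.81 (adjusted p = 0.000765, SE 0.11) in those labelled +Fe, and the interaction was not called (-0.44, adjusted p = 0.0732, SE 0.15), although it was with a pseudocount of 0.1 (-0.68, adjusted p = 0.045) and without pad4 -Fe 1 (-0.52, adjusted p = 0.0447). CRK12 (AT4G23200, chromosome 4, 12145380 to 12147934) had 4 group means between 11.9 and 19.9 FPKM and was lower in pad4 labelled -Fe (-0.70, adjusted p = 0.000366, SE 0.10). Its lower level in pad4 labelled +Fe (-0.39) was not called without pad4 +Fe 1, pad4 +Fe 2, pad4 +Fe 3, wild type +Fe 1, wild type +Fe 2 or wild type +Fe 3 (log2 difference -0.43 to -0.34, adjusted p = 0.0643 to 0.104), and its rise in wild type (0.28) was not called without wild type -Fe 1, wild type -Fe 2, wild type +Fe 1 or wild type +Fe 3 (log2 difference 0.20 to 0.26, adjusted p = 0.0968 to 0.134).

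CRK23 (AT4G23310, chromosome 4, 12185737 to 12188763) and CRK24 (AT4G23320, chromosome 4, 12189097 to 12191977), the last genes of the cluster, were highest in wild type labelled -Fe. CRK23 had 0.601, 1.35 and 0.923 FPKM in pad4 labelled -Fe and 0.901, 1.06 and 1.05 FPKM in pad4 labelled +Fe. CRK23 had 3.36, 4.28 and 3.85 FPKM in wild type labelled -Fe and 1.13, 1.93 and 1.62 FPKM in wild type labelled +Fe. The wild-type libraries labelled -Fe lay above the other 9. CRK24 had 3.82, 3.37 and 7.11 FPKM in pad4 labelled -Fe and 3.05, 3.15 and 2.304 FPKM in pad4 labelled +Fe. CRK24 had 11.9, 17.8 and 13.9 FPKM in wild type labelled -Fe and 5.06, 6.51 and 4.69 FPKM in wild type labelled +Fe, and again the wild-type libraries labelled -Fe lay above all others. The genotype difference in libraries labelled -Fe was -1.32 (adjusted p = 7.59e-05, SE 0.15) for CRK23 and -1.47 (adjusted p = 0.000474, SE 0.22) for CRK24. The interaction was called for CRK23 (-0.97, adjusted p = 0.0121, SE 0.22) and not for CRK24 (-0.73, adjusted p = 0.155, SE 0.31), which had 1 high library, pad4 -Fe 3, and was called without it (-1.0, adjusted p = 0.0167). Both further rows of CRK24 rose with the Fe label in wild type (1.37 and 1.30), were lower in pad4 labelled -Fe (-1.29 and -1.34) and had a called interaction (-0.75 and -0.99). The first of these rows also rose with the Fe label in pad4 (0.62). Its means there were 2.07 FPKM labelled -Fe and 1.00 FPKM labelled +Fe, without overlap. In both rows, pad4 labelled +Fe lay below wild type labelled +Fe without overlap.

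CRK21 and CRK22 were the cluster members called higher in pad4 labelled -Fe, and CRK19 was not called there. CRK21 (AT4G23290, chromosome 4, 12177738 to 12180826) had 19.9, 19.2 and 23.3 FPKM in pad4 labelled -Fe and 17.2, 18.1 and 16.5 FPKM in pad4 labelled +Fe. CRK21 had 9.12, 11.9 and 9.10 FPKM in wild type labelled -Fe and 12.5, 15.8 and 11.7 FPKM in wild type labelled +Fe, so pad4 lay above wild type under each label. It was called higher in pad4 labelled -Fe (0.99, adjusted p = 0.000139, SE 0.13), and in those labelled +Fe the difference was 0.36 (adjusted p = 0.104, SE 0.13), called without wild type +Fe 2 (0.48, adjusted p = 0.0379) and without the 4 libraries that stand apart (0.45, adjusted p = 0.0055). Its interaction of 0.62 (adjusted p = 0.0379, SE 0.18) was not called without pad4 -Fe 1, pad4 -Fe 3, pad4 +Fe 1, pad4 +Fe 2, pad4 +Fe 3, wild type -Fe 1, wild type -Fe 3, wild type +Fe 1 or wild type +Fe 2 (log2 difference 0.50 to 0.66, adjusted p = 0.0568 to 0.0856). CRK22 (AT4G23300, chromosome 4, 12181932 to 12184704) had 16.1, 16.6 and 18.8 FPKM in pad4 labelled -Fe and 16.6, 16.3 and 17.9 FPKM in pad4 labelled +Fe. CRK22 had 12.8, 14.6 and 14.3 FPKM in wild type labelled -Fe and 14.9, 16.4 and 14.6 FPKM in wild type labelled +Fe. Its pad4 libraries labelled -Fe lay above the wild-type ones so labelled, with overlap in the libraries labelled +Fe. The difference of 0.29 (adjusted p = 0.0221, SE 0.08) was not called without pad4 -Fe 3 or wild type -Fe 1 (log2 difference 0.22 to 0.23, adjusted p = 0.076 to 0.0886).

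CRK19 (AT4G23270, chromosome 4, 12171103 to 12173925), another gene whose overexpression gives cell death, had 32.8, 40.4 and 38.1 FPKM in pad4 labelled -Fe and 48.9, 49.3 and 48.4 FPKM in pad4 labelled +Fe. CRK19 had 35.1, 34.4 and 36.4 FPKM in wild type labelled -Fe and 61.1, 59.8 and 61.9 FPKM in wild type labelled +Fe. Under the -Fe label the genotypes overlapped, and under the +Fe label pad4 lay below wild type (-0.31, adjusted p = 0.0205, SE 0.07). It fell with the Fe label in pad4 (-0.39) and in wild type (-0.77). The interaction of 0.38 (adjusted p = 0.0307, SE 0.10) was not called without pad4 -Fe 2, pad4 -Fe 3, pad4 +Fe 1, pad4 +Fe 2, pad4 +Fe 3, wild type -Fe 1, wild type -Fe 2, wild type +Fe 1 or wild type +Fe 3 (log2 difference 0.31 to 0.38, adjusted p = 0.0541 to 0.0782), after quantile normalization (0.37, adjusted p = 0.0533) or without the 4 libraries that stand apart (0.36, adjusted p = 0.0893). The genotype difference labelled +Fe was not called without pad4 +Fe 1, pad4 +Fe 2, pad4 +Fe 3, wild type +Fe 1 or wild type +Fe 3 (log2 difference -0.32 to -0.30, adjusted p = 0.0551 to 0.0841). CRK20 and CRK21, next to each other on the chromosome, were called in opposite directions between genotypes labelled -Fe.

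A second run of neighbours on chromosome 4, CRK36 to CRK40, held the member with the largest fall by Fe label in pad4. CRK36 (AT4G04490, chromosome 4, 2231957 to 2234638), which binds ARCK1 and acts in abscisic acid and osmotic stress responses at germination, had 8.49, 8.02 and 11.0 FPKM in pad4 labelled -Fe and 33.5, 46.9 and 37.0 FPKM in pad4 labelled +Fe. CRK36 had 39.7, 52.7 and 35.0 FPKM in wild type labelled -Fe and 28.1, 41.0 and 28.7 FPKM in wild type labelled +Fe. The 3 pad4 libraries labelled -Fe lay below all 9 others, which overlapped between groups. Its Fe label effect was -1.98 (adjusted p = 5.54e-06, SE 0.19) in pad4 and 0.37 (adjusted p = 0.126, SE 0.19) in wild type, with an interaction of -2.35 (adjusted p = 0.000165, SE 0.27). In wild type the effect was called higher without wild type +Fe 2 (0.54, adjusted p = 0.0348) and without the 4 libraries that stand apart (0.38, adjusted p = 0.0047). pad4 was lower than wild type in libraries labelled -Fe (-2.09, adjusted p = 1.11e-05, SE 0.19), while the difference in those labelled +Fe was 0.26 (adjusted p = 0.447, SE 0.19), and was called (0.30, adjusted p = 0.0441) without the 4 libraries that stand apart.

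CRK37, CRK38 and CRK39 were less abundant and were also lower in pad4 labelled -Fe. CRK39 (AT4G04540, chromosome 4, 2259580 to 2262138) had 3.07, 2.80 and 4.16 FPKM in pad4 labelled -Fe and 7.55, 8.51 and 7.76 FPKM in pad4 labelled +Fe. CRK39 had 13.6, 16.4 and 14.7 FPKM in wild type labelled -Fe and 8.47, 11.4 and 9.70 FPKM in wild type labelled +Fe. Its pad4 libraries labelled +Fe and wild-type libraries labelled +Fe overlapped, between the other groups. CRK38 (AT4G04510, chromosome 4, 2242122 to 2244930) had 0.722, 0.847 and 0.828 FPKM in pad4 labelled -Fe and 2.97, 2.74 and 2.41 FPKM in pad4 labelled +Fe. CRK38 had 6.33, 5.58 and 5.07 FPKM in wild type labelled -Fe and 3.78, 3.06 and 3.46 FPKM in wild type labelled +Fe. In both genes, pad4 labelled -Fe was the lowest group and wild type labelled -Fe the highest, with no overlap of either with another group. The Fe label moved them in opposite directions, by -1.05 in pad4 and 0.56 in wild type for CRK39 and by -1.04 and 0.59 for CRK38, with interactions of -1.61 (adjusted p = 0.000164, SE 0.18) and -1.63 (adjusted p = 2.39e-05, SE 0.15).

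CRK37 (AT4G04500, chromosome 4, 2238411 to 2240865) had 1.62, 1.61 and 1.77 FPKM in pad4 labelled -Fe and 1.49, 1.80 and 1.91 FPKM in pad4 labelled +Fe. CRK37 had 5.44, 5.87 and 5.87 FPKM in wild type labelled -Fe and 2.40, 2.99 and 2.70 FPKM in wild type labelled +Fe. Its pad4 groups overlapped, and wild type labelled -Fe lay above all others. The interaction was -0.90 (adjusted p = 0.000888, SE 0.13) and the genotype difference in libraries labelled -Fe was -1.34 (adjusted p = 1.23e-06, SE 0.09). In those labelled +Fe it was -0.44, a call that ended without pad4 +Fe 1, wild type +Fe 2 or wild type +Fe 3 (log2 difference -0.43 to -0.37, adjusted p = 0.05 to 0.0564). CRK40 (AT4G04570, chromosome 4, 2289959 to 2292755), the last of the run, had 51.6, 50.3 and 52.4 FPKM in pad4 labelled -Fe and 50.8, 47.3 and 49.4 FPKM in pad4 labelled +Fe. CRK40 had 55.5, 55.4 and 56.3 FPKM in wild type labelled -Fe and 59.2, 58.5 and 59.1 FPKM in wild type labelled +Fe. Its group means lay between 49.2 and 58.9 FPKM, with a called genotype difference of -0.26 (adjusted p = 0.00924, SE 0.05) in libraries labelled +Fe and an interaction, not called, of 0.14 (adjusted p = 0.233, SE 0.07).

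ARCK1 (AT4G11890, chromosome 4, 7147865 to 7149921), a cytosolic CRK without the extracellular domains that interacts with CRK36, had 20.2, 19.1 and 18.7 FPKM in pad4 labelled -Fe and 49.4, 56.3 and 37.1 FPKM in pad4 labelled +Fe. ARCK1 had 87.8, 112 and 85.7 FPKM in wild type labelled -Fe and 76.7, 79.8 and 79.4 FPKM in wild type labelled +Fe. Every pad4 library lay below every wild-type library, and pad4 labelled -Fe lay lowest without overlap. The genotype difference was -2.24 (adjusted p = 4.62e-07, SE 0.14) in libraries labelled -Fe and -0.73 (adjusted p = 0.00679, SE 0.14) in those labelled +Fe. It fell with the Fe label in pad4 (-1.24, adjusted p = 1.72e-05, SE 0.14) and had a difference of 0.26 (adjusted p = 0.133, SE 0.14) in wild type, with an interaction of -1.50 (adjusted p = 0.000395, SE 0.20). ARCK1 and CRK36 thus both stood lowest in pad4 labelled -Fe, while in pad4 labelled +Fe ARCK1 was below wild type and CRK36 overlapped it.

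**Figure D4:**
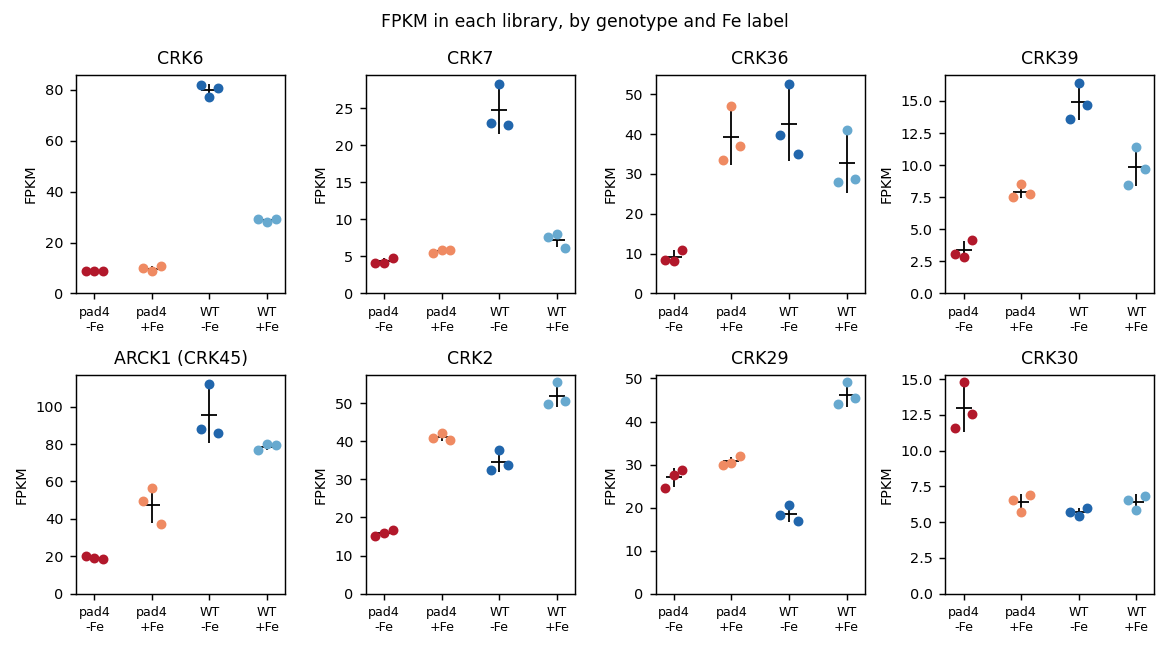
FPKM of 8 members in each library (points), with the group mean (bar) and SD (line, n = 3), for pad4 labelled -Fe, pad4 labelled +Fe, wild type (WT) labelled -Fe and wild type labelled +Fe. CRK6 and CRK7 are highest in wild type labelled -Fe, CRK36, CRK39, ARCK1 and CRK2 are lowest in pad4 labelled -Fe, and CRK30 is highest there.

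CRK2 (AT1G70520, chromosome 1, 26583403 to 26587419), which phosphorylates the NADPH oxidase RBOHD in the oxidative burst, and its neighbour CRK3 (AT1G70530, chromosome 1, 26588389 to 26591379) fell with the Fe label in both genotypes and were lower in pad4. CRK2 had 15.3, 15.9 and 16.8 FPKM in pad4 labelled -Fe and 40.8, 42.2 and 40.3 FPKM in pad4 labelled +Fe. CRK2 had 32.3, 37.7 and 33.9 FPKM in wild type labelled -Fe and 49.9, 55.4 and 50.7 FPKM in wild type labelled +Fe. No group overlapped another, and pad4 labelled -Fe was the lowest. Between the Fe labels the effect was -1.31 (adjusted p = 5.9e-08, SE 0.07) in pad4 and -0.57 (adjusted p = 4.56e-05, SE 0.07) in wild type, with an interaction of -0.73 (adjusted p = 0.000618, SE 0.10). The genotype difference was -1.07 (adjusted p = 9.46e-07, SE 0.07) in libraries labelled -Fe; in those labelled +Fe it was -0.33, a call that ended without pad4 +Fe 1, pad4 +Fe 3 or wild type +Fe 2 (log2 difference -0.33 to -0.28, adjusted p = 0.0508 to 0.0589). CRK3 had 12.6, 12.9 and 13.0 FPKM in pad4 labelled -Fe and 33.4, 27.8 and 33.2 FPKM in pad4 labelled +Fe. CRK3 had 20.2, 21.0 and 20.7 FPKM in wild type labelled -Fe and 45.2, 43.7 and 44.0 FPKM in wild type labelled +Fe, again with no overlap of groups, and its Fe label effects were -1.22 in pad4 and -1.07 in wild type, with no called interaction (-0.15, adjusted p = 0.355, SE 0.10).

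CRK4 (AT3G45860, chromosome 3, 16863401 to 16866041), which gives cell death when overexpressed, rose with the Fe label in both genotypes. It had 9.83, 11.2 and 11.4 FPKM in pad4 labelled -Fe and 4.23, 4.21 and 4.47 FPKM in pad4 labelled +Fe. CRK4 had 24.9, 26.1 and 22.1 FPKM in wild type labelled -Fe and 8.59, 10.2 and 8.497 FPKM in wild type labelled +Fe. Within each genotype the libraries labelled -Fe lay above those labelled +Fe, and under each label pad4 lay below wild type. The Fe label effect was 1.15 (adjusted p = 1.28e-06, SE 0.09) in pad4, the largest called rise of any member there, and 1.33 (adjusted p = 4.08e-07, SE 0.09) in wild type. The genotype difference was -1.11 (adjusted p = 5.27e-06, SE 0.09) in libraries labelled -Fe and -0.93 (adjusted p = 0.000143, SE 0.09) in those labelled +Fe, and the interaction was not called (-0.18, adjusted p = 0.407, SE 0.13).

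The 6 members with a called positive interaction had an Fe label effect in pad4 that lay above the one in wild type. CRK28 (AT4G21400, chromosome 4, 11399131 to 11401709), which associates with the immune co-receptor BAK1, had 5.37, 6.83 and 6.17 FPKM in pad4 labelled -Fe and 13.3, 14.03 and 13.7 FPKM in pad4 labelled +Fe. CRK28 had 3.93, 4.31 and 3.59 FPKM in wild type labelled -Fe and 15.6, 18.0 and 14.8 FPKM in wild type labelled +Fe. No group overlapped another. CRK29 (AT4G21410, chromosome 4, 11402314 to 11405056), its neighbour, had 24.6, 27.6 and 28.8 FPKM in pad4 labelled -Fe and 29.9, 30.4 and 32.0 FPKM in pad4 labelled +Fe. CRK29 had 18.3, 20.6 and 16.8 FPKM in wild type labelled -Fe and 44.0, 49.2 and 45.4 FPKM in wild type labelled +Fe. Both were lowest in wild type labelled -Fe and highest in wild type labelled +Fe, with no overlap of either group with another. pad4 was higher in libraries labelled -Fe, with a log2 difference of 0.52 (adjusted p = 0.00198, SE 0.10) for CRK28 and 0.52 (adjusted p = 0.000886, SE 0.09) for CRK29. In libraries labelled +Fe the differences were -0.22 (adjusted p = 0.203, SE 0.10) and -0.57 (adjusted p = 0.00192, SE 0.09), the second of which was called lower. The interactions were 0.74 (adjusted p = 0.0041, SE 0.14) and 1.09 (adjusted p = 0.000133, SE 0.12).

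CRK30 (AT4G11460, chromosome 4, 6964468 to 6967093) was called higher with the Fe label in pad4 and not called in wild type, and its interaction was called (1.07, adjusted p = 0.000495, SE 0.14). It had 11.6, 14.8 and 12.6 FPKM in pad4 labelled -Fe and 6.57, 5.72 and 6.87 FPKM in pad4 labelled +Fe. CRK30 had 5.71, 5.43 and 5.98 FPKM in wild type labelled -Fe and 6.58, 5.85 and 6.86 FPKM in wild type labelled +Fe. The 3 pad4 libraries labelled -Fe lay above all 9 others. In the same run of genes, CRK31 fell with the Fe label in both genotypes (-0.48 in pad4 and -0.50 in wild type), and CRK34 had differences of 0.15 (adjusted p = 0.195, SE 0.10) and 0.25 (adjusted p = 0.0473, SE 0.10), the second called but not without pad4 -Fe 1, pad4 -Fe 2, pad4 -Fe 3, pad4 +Fe 1, wild type -Fe 1, wild type -Fe 2, wild type -Fe 3, wild type +Fe 1 or wild type +Fe 3 (log2 difference 0.17 to 0.28, adjusted p = 0.0539 to 0.19). CRK31 was lower in pad4 labelled -Fe (-0.30), a call that ended without pad4 -Fe 1, pad4 -Fe 2, wild type -Fe 2, wild type -Fe 3, wild type +Fe 1 or wild type +Fe 3 (log2 difference -0.33 to -0.23, adjusted p = 0.0501 to 0.13) or after quantile normalization (-0.25, adjusted p = 0.0651).

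CRK41 (AT4G00970, chromosome 4, 418437 to 421694) had 22.3, 26.3 and 20.7 FPKM in pad4 labelled -Fe and 36.2, 32.9 and 36.6 FPKM in pad4 labelled +Fe. CRK41 had 20.0, 16.2 and 22.02 FPKM in wild type labelled -Fe and 54.6, 48.4 and 52.3 FPKM in wild type labelled +Fe. The genotypes overlapped in libraries labelled -Fe, and pad4 lay below wild type in those labelled +Fe. By Fe label the effect was -0.59 (adjusted p = 0.00102, SE 0.11) in pad4 and -1.38 (adjusted p = 1.73e-06, SE 0.11) in wild type, with an interaction of 0.79 (adjusted p = 0.00744, SE 0.16). Its genotype difference in libraries labelled +Fe (-0.54) was not called without pad4 +Fe 2, wild type +Fe 1 or wild type +Fe 3 (log2 difference -0.53 to -0.49, adjusted p = 0.0509 to 0.06). CRK42, alone on chromosome 5 among the members (16151772 to 16155683), had means of 8.79 ± 0.857 and 15.7 ± 2.82 FPKM in pad4 labelled -Fe and +Fe and of 10.8 ± 0.711 and 14.6 ± 1.46 FPKM in wild type labelled -Fe and +Fe (SD, n = 3 each). It fell with the Fe label in pad4 (-0.76, adjusted p = 0.000262, SE 0.12), and its fall in wild type (-0.39) was not called without wild type -Fe 3 or wild type +Fe 2 (log2 difference -0.34 to -0.32, adjusted p = 0.065 to 0.0715).

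By calls of the Fe label effect, 3 members were higher in both genotypes (CRK4, CRK5 and CRK15) and 11 were lower in both (CRK2, CRK3, CRK10, CRK11, CRK13, CRK18, CRK19, CRK28, CRK31, CRK41 and CRK42). Another 3 (CRK7, CRK38 and CRK39) were higher in wild type and lower in pad4, and all 3 had a called interaction. The call was higher in wild type and absent in pad4 for 7 members, of which CRK6, CRK23 and CRK37 had a called interaction (CRK8 is set aside because of its selection), and lower in wild type and absent in pad4 for CRK21 and CRK29. The call of CRK21 in wild type (-0.37) was lost without wild type -Fe 1, wild type -Fe 3 or wild type +Fe 2 and with the compared groups alone in the fit (log2 difference -0.37 to -0.25, adjusted p = 0.0668 to 0.11), and its effect in pad4 was called higher after quantile normalization (0.32, adjusted p = 0.0321) and without the 4 libraries that stand apart (0.20, adjusted p = 0.0376). CRK29 was called lower in pad4 too without those 4 (-0.24, adjusted p = 0.0282), and CRK24 was called higher in pad4 without pad4 -Fe 2 or wild type -Fe 2 (0.54 to 0.71, adjusted p = 0.0258 to 0.0478). CRK24 is placed here by the row used, and a further row of it rose in pad4 (0.62). Lower in pad4 with no call in wild type were CRK14 (by the row used), CRK20, CRK36 and ARCK1, of which all but CRK20 had a called interaction. CRK20 was called lower in wild type without pad4 -Fe 1, pad4 -Fe 2 or pad4 +Fe 2 (-0.26, adjusted p = 0.0373 to 0.0483). CRK22 and CRK40 were called in neither genotype. Taken singly, the Fe label effect was called for 57.4% of all tested loci in pad4 and 51.9% in wild type. The share of all tested loci with each joint pattern was not computed, so these counts only list the members.

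**Figure D5:**
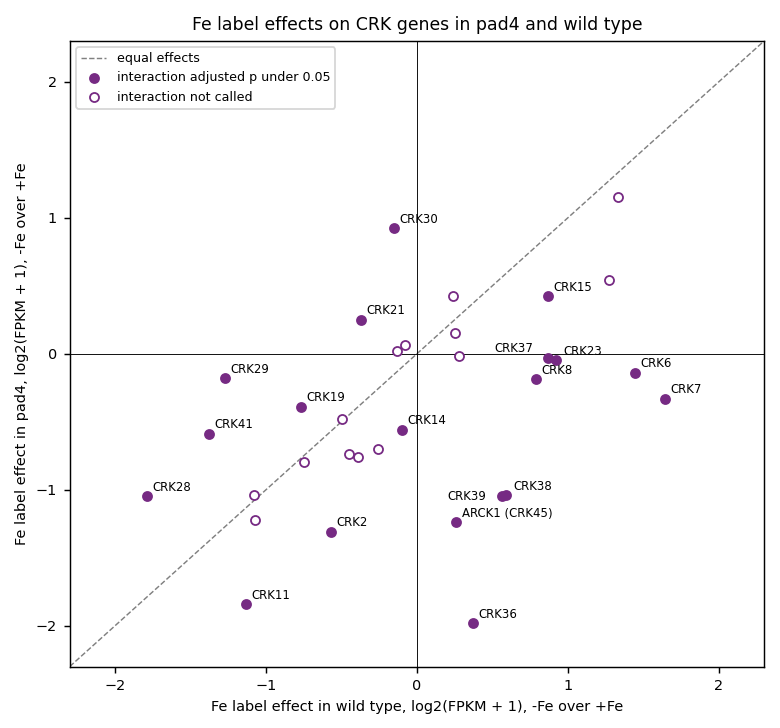
Fe label effect (libraries labelled -Fe over +Fe, log2(FPKM + 1) difference) of the 33 tested members in pad4 (vertical) and wild type (horizontal); the dashed line marks equal effects. The 19 filled, named points had a called interaction: 13 lie below the line, CRK8 among them by its selection, and 6 above it.

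The genotype effects under the labels shared 12 members called lower in both, which is 12 of the 22 lower in libraries labelled -Fe and 12 of the 16 lower in those labelled +Fe. They were CRK2, CRK3, CRK4, CRK5, CRK6, CRK12, CRK13, CRK14, CRK15, CRK20, CRK37 and ARCK1. Of all tested loci, 14.4% were called lower under the -Fe label and 5.66% under the +Fe label. The share called lower under both was not computed, so the 12 are given as a list only. Under the -Fe label, 10 others were called lower (CRK7, CRK8, CRK11, CRK18, CRK23, CRK24, CRK31, CRK36, CRK38 and CRK39), CRK8 among them by its selection. Under the +Fe label, 3 others were called lower (CRK19, CRK40 and CRK41). CRK29 was called higher in pad4 labelled -Fe and lower in pad4 labelled +Fe, while CRK21, CRK22, CRK28 and CRK30 were called higher under the -Fe label and not called under the +Fe label. CRK10, CRK34 and CRK42 were called in neither, though CRK10 (-0.21, adjusted p = 0.0482) and CRK42 (-0.30, adjusted p = 0.0419) were called lower under the -Fe label without the 4 libraries that stand apart. Under the +Fe label, CRK24 (by the row used) was called lower without pad4 -Fe 3 (-0.74, adjusted p = 0.0145) or without those 4 (-0.68, adjusted p = 0.013), and CRK31 without wild type -Fe 1 (-0.32, adjusted p = 0.0466).

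The loci outside the 37 were described by the same fit. The merged CRK16 and CRK17 locus fell with the Fe label in pad4 (-0.93) and in wild type (-0.61), and was lower in pad4 labelled -Fe (-0.59), while its differences of -0.28 between genotypes labelled +Fe and -0.32 in the interaction were not called. The locus that merges CRK27 with AT4G21220 fell with the Fe label in pad4 (-0.43), and its other differences were not called. The second rows of CRK3 and CRK14 were called lower in pad4 under both labels, as were the rows used. By Fe label the rows of CRK14 differed. Its second row had means of 5.82 FPKM in pad4 labelled -Fe and 14.5 FPKM in pad4 labelled +Fe. In wild type its means were 18.2 FPKM labelled -Fe and 23.6 FPKM labelled +Fe, without overlap, so this row was lower in libraries labelled -Fe there too. Of 4 further CRK genes that were not looked for as members, 1 passed the filter, AT4G00960. It stands on 3 locus rows that differ: in pad4 labelled -Fe the row with the highest mean had 0, 2.35 and 0 FPKM, and another had 0.969, 2.14 and 1.85 FPKM, so no difference between groups is given for it.

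Related proteins with DUF26 domains but no kinase, such as the plasmodesmata-located PDLPs, were tested beside the CRKs. Of 10 tested, 1 higher and 4 lower were called in pad4 over wild type labelled -Fe (median -0.17, beside 0.01 over all tested loci) and 1 higher and 3 lower in those labelled +Fe, beside 27.9% and 9.35% of all tested loci. The Fe label effect had 4 higher and 5 lower in pad4 and 4 higher and 4 lower in wild type, beside 57.4% and 51.9% of all tested loci. The interaction had 0 higher and 1 lower, no larger a share than the 14.7% of all tested loci. PDLP8 was the member with a called interaction (-0.83, adjusted p = 0.00353, SE 0.15). CRK9 (EP1), which lies inside the tandem cluster, was lower in pad4 under both labels (-0.89 for -Fe and -0.62 for +Fe) and rose with the Fe label in both genotypes (0.59 in pad4 and 0.86 in wild type).

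Genes of pattern recognition and the oxidative burst, in which several CRKs act, were mostly lower in libraries labelled -Fe. Of 14 tested, 1 higher and 10 lower were called in pad4 and 1 higher and 11 lower in wild type, beside 31.0% and 26.7% of all tested loci called lower. The genotype effect had 2 higher and 6 lower in libraries labelled -Fe (median -0.23, beside 0.01 over all tested loci) and 0 higher and 4 lower in those labelled +Fe, beside 27.9% and 9.35% of all tested loci called. The interaction had 2 higher and 0 lower, near the 14.7% of all tested loci. RBOHD, the NADPH oxidase that CRK2 phosphorylates, had 61.1, 58.3 and 57.5 FPKM in pad4 labelled -Fe and 81.8, 80.2 and 79.9 FPKM in pad4 labelled +Fe. RBOHD had 38.9, 33.7 and 33.3 FPKM in wild type labelled -Fe and 93.7, 90.4 and 97.3 FPKM in wild type labelled +Fe. It fell with the Fe label in both genotypes, less in pad4 (interaction 0.94, adjusted p = 6.36e-05, SE 0.10), and was higher in pad4 labelled -Fe (0.73, adjusted p = 1.2e-05, SE 0.07), where CRK2 was lower. BAK1, the partner of CRK28, was not called between genotypes (-0.02 for -Fe and -0.16 for +Fe).

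WRKY transcription factors of defence were mostly lower in pad4 labelled -Fe, as 1 higher and 8 lower of 10 tested were called (median -0.81, beside 0.01 over all tested loci), and 0 higher and 4 lower in those labelled +Fe, beside 27.9% and 9.35% of all tested loci. The interaction had 0 higher and 5 lower, beside 14.7%. WRKY38 had 1.39, 1.19 and 1.35 FPKM in pad4 labelled -Fe and 2.13, 1.45 and 1.68 FPKM in pad4 labelled +Fe. WRKY38 had 6.13, 8.21 and 6.78 FPKM in wild type labelled -Fe and 2.496, 2.21 and 2.36 FPKM in wild type labelled +Fe, with wild type labelled -Fe above the other 3 groups, as for CRK6 and CRK7, and an interaction of -1.50 (adjusted p = 0.000133, SE 0.17). WRKY33 went the other way in genotype, higher in pad4 labelled -Fe (0.51, adjusted p = 0.022, SE 0.14). PR1, the classical salicylic acid marker, was lower in pad4 labelled -Fe (-1.98, adjusted p = 1.38e-06, SE 0.14), with an interaction of -2.24 (adjusted p = 2.2e-05, SE 0.20). Under the +Fe label PR1 was not lower in pad4, with means of 97.3 FPKM in pad4 and 80.5 FPKM in wild type (0.27, not called).

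The authors' deposited tables compare the same groups without an added constant. In the authors' deposited table for pad4 over wild type labelled -Fe, 25 of 35 members had q under 0.05, 4 higher and 21 lower, beside 22.3% of all loci tested. The 35 include CRK25 and CRK32, which fell below the filter used here. CRK32 is 1 of the 21 lower, with a log2 fold of -1.79 in that table. In the authors' deposited table for those labelled +Fe, 16 of 35 members had q under 0.05, 1 higher and 15 lower, beside 13.0% of all loci tested. The authors' own mark of significance was stricter, as all loci that carry it also had an absolute log2 fold of at least 1. Under the +Fe label the members so marked were CRK4, CRK5 and CRK6, beside 271 of 20343 loci tested. In the authors' deposited table for the Fe label in pad4, 23 of 34 members had q under 0.05, 4 higher and 19 lower, beside 52.7% of all loci tested. In that for the Fe label in wild type, also the authors' deposited table, 25 of 35 members had q under 0.05, 12 higher and 13 lower, beside 48.3% of all loci tested. The 12 higher include CRK26, which also fell below the filter, with a log2 fold of 0.84. For CRK6, the authors' deposited tables give a log2 fold of -3.21 between genotypes labelled -Fe and -1.57 between those labelled +Fe, and for CRK36 they give -2.23 and 0.27.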

How the data were processed

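Expression was measured by RNA sequencing in 12 libraries, 3 in each of 4 groups taken from the labels. The authors deposited 1 table of FPKM per locus and library, with TAIR10 named in the submitters' processing notes; the sources used here give no aligner or counter. A copy of that table differing by at most 0.005 FPKM was not used. In 4 comparison tables, per the file headers, the authors deposited group FPKM, a log2 fold, a p-value and a q-value for each locus, which were read as deposited. Of the 28693 loci, 354 merge several genes. All 40 identifiers matched a locus tag of the RefSeq gene table, from which the symbols come.

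For the 20173 loci that reached 1 FPKM in 3 or more libraries, log2(FPKM + 1) was fitted in R 4.3.3 with limma 3.58.1, using its trended eBayes. The added 1 understates changes of low genes. The 12 libraries stood in 1 fit with a mean per group, and p-values were adjusted by the Benjamini-Hochberg method over all tested loci, with a threshold of 0.05. The script was tested on simulated data. Fe label effects are -Fe over +Fe, genotype effects pad4 over wild type, and the interaction is the first in pad4 minus that in wild type. FPKM carries no library size, so the precision comes from the spread between libraries within groups. That spread was pooled over all 4 groups and moderated across loci by eBayes. Libraries outside a comparison therefore also enter its SE and p-value.

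The members and lists were chosen with earlier results of these data known. Values in every library are given for members called in the interaction, or among the 5 largest called rises or falls of a comparison between groups provided that the higher group averaged 2 FPKM; CRK10, CRK40 and other members were added after their values were seen. Alternatives were a pseudocount of 0.1, no low-value filter, quantile normalization, no trend, a replicate block, the compared groups alone, each library left out, and the 4 libraries that stand apart left out. The replicate numbers carry no stated pairing.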

Additional observations from a re-analysis of the deposited data

Results flagged for a closer look

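For 19 of the 33 tested members the Fe label effect differed between pad4 and wild type by the interaction test of limma (adjusted p under 0.05, beside 14.7% of all tested loci). The values are log2(FPKM + 1) differences, the effect in pad4 minus that in wild type. In the tandem cluster they were -1.58 for CRK6, -1.97 for CRK7, -0.98 for CRK8, -0.71 for CRK11, -0.46 for CRK14, -0.45 for CRK15 and -0.97 for CRK23, and on the positive side 0.38 for CRK19 and 0.62 for CRK21. CRK8 was tested only because wild type labelled -Fe was above 1 FPKM, so its value follows from that choice and is no result about it. Outside it, the negative values were -0.73 for CRK2, -2.35 for CRK36, -0.90 for CRK37, -1.63 for CRK38, -1.61 for CRK39 and -1.50 for ARCK1. The positive values outside it were 0.74 for CRK28, 1.09 for CRK29, 1.07 for CRK30 and 0.79 for CRK41. The 4 heat shock genes, which were far higher in wild type labelled -Fe than in any other group, had values of -8.30 to -6.99 in the same test, and their part in the CRK values was not tested.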

How the results depend on the processing

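Of 165 values (33 members in 5 comparisons), 110 were called; 18 of these lost the call under at least 1 alternative, 16 others gained one, and none reversed. The count of all loci called in pad4 over wild type labelled +Fe was 1887. It became 3151 without the 4 libraries that stand apart, and 1026 to 2067 with 1 library left out; the cause was not tested. With 1 library left out, the members called numbered 24 to 27 and 11 to 17 for the genotype effects labelled -Fe and +Fe, 21 to 23 and 22 to 27 for the Fe label effects in pad4 and wild type, and 15 to 18 for the interaction. All loci called then numbered 4683 to 5649 and 1026 to 2067 for the genotype effects labelled -Fe and +Fe. They numbered 10229 to 11940 and 9242 to 10645 for the Fe label effects in pad4 and wild type, and 2049 to 3213 for the interaction. Under the other alternatives the member counts stayed within 1.5 times those reported. With the replicate block, 22 members were called for the Fe label in pad4, 25 in wild type, 27 and 15 for the genotype labelled -Fe and +Fe, and 19 for the interaction. The block counts are given without a share of all loci, so they show only how the member calls held. The calls of CRK34 (Fe label in wild type) and CRK13 (genotype labelled +Fe) were lost under the block. Pairing by number was not shown: over 18 pairs of same-numbered libraries, deviations correlated at -0.424 to 0.511, with 10 pairs over 0.1, and 4 of 12 libraries correlated best with their own number. CRK25, CRK26, CRK32 and CRK33 did not pass the filter of 1 FPKM in 3 libraries and were not tested here.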
